A study of Homo sapiens with 8 samples.

Results

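The BCL2 family genes described here are 10 genes chosen by name out of the 31721 in the expression table. BCL2, BCL2L1, BCL2L2 and MCL1 encode pro-survival proteins, BAX and BAK1 encode the effectors, and BBC3, PMAIP1, BCL2L11 and BID encode BH3-only proteins. Their messenger RNA was measured in A2780, an established human ovarian carcinoma cell line, after 24 hours with the solvent DMSO, with olaparib, with palbociclib, or with olaparib and palbociclib together (the combination). Olaparib inhibits the PARP enzymes of DNA break repair, and palbociclib inhibits the kinases CDK4 and CDK6 that drive cells out of G1. All 4 groups were the same line, with no genetic change named in the labels, and each had 2 libraries of polyadenylated RNA. The labels state no drug dose.

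The BCL2 family decides whether the outer mitochondrial membrane is breached, the step that commits most cells to apoptosis. Pro-survival members hold the effectors BAX and BAK1 in check, and BH3-only members bind the pro-survival proteins, or activate the effectors directly, so that the effectors form pores and release cytochrome c. BBC3 (the protein PUMA), PMAIP1 (NOXA) and BAX are textbook transcriptional targets of p53, whereas MCL1 is a short-lived protein whose amount also depends on its degradation. The values below are of transcripts only.

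Recovered reads ranged from 20566089 to 34056976 per library, with both DMSO libraries (31183359 and 34056976) above the other 6, and the summed FPKM (fragments divided by exon length and library size) ranged from 264453 in a combination library to 295656 in a DMSO library. The label calls the cells epithelial in morphology, but all 7 epithelial markers (EPCAM, CDH1, KRT8, KRT18, KRT19, PAX8 and MUC16) averaged under 1 FPKM. Their sum was 0.423 to 0.453 FPKM in DMSO, 0.530 to 0.646 with olaparib, 1.109 to 1.118 with palbociclib and 1.18 to 1.40 in the combination. Most of this rise was EPCAM, which averaged 0.194 FPKM in DMSO, 0.357 with olaparib, 0.766 with palbociclib and 0.906 in the combination. KRT8 went from a mean of 0.144 FPKM in DMSO to 0.215 in the combination. All 5 fibroblast markers (COL1A1, COL1A2, DCN, LUM and PDGFRB) reached 1 FPKM, and their sum was 62.8 to 64.7 in DMSO, 58.1 to 61.3 with olaparib, 68.1 to 73.7 with palbociclib and 68.6 to 70.0 in the combination. Leukocyte markers summed to at most 0.618 FPKM and endothelial markers to at most 0.0169. The part of these shifts in the results below was not tested. In such bulk samples, fewer cells of a kind and less RNA per cell cannot be told apart.

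Promoter windows from the RefSeq table (GRCh38.p14, 250 bases before to 50 after a start site) matched 8 of the 10 genes. MCL1 and BCL2L2 had no entry. The stretches of BBC3, BAX and BAK1 are shown because these genes carry the main contrasts: BBC3 and BAX rose with olaparib, and BAK1, the other effector, was not called there. Each is printed 5′ to 3′ on the gene's own strand and stops where an annotated exon of the gene begins. Capitals mark the E-box CACGTG, the same on both strands, or the p53 half-site consensus. The BAK1 stretch is chr6:33580294-33580526 on the minus strand, BBC3 is chr19:47232767-47232917 on the minus strand, and BAX is chr19:48954625-48954814 on the plus strand.
BAK1: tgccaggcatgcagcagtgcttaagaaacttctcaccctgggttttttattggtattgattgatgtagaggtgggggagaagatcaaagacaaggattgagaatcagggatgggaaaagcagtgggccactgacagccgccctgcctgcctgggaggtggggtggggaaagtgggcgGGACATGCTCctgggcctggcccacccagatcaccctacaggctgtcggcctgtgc
BBC3: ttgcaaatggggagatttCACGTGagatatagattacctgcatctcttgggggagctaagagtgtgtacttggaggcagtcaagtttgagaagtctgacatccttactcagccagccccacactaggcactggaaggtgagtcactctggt
BAX: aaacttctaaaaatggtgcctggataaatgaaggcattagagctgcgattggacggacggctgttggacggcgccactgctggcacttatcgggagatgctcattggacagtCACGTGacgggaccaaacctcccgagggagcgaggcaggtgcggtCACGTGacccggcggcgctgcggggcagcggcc
The 1 p53 half-site among the windows of the 8 genes was in BAK1, GGACATGCTC, with its first base 73 bases before the start site. Such a half-site was in 6.64% of all 34943 windows and in 5.71% of those of the tested genes. The BAX window held 4 E-boxes, starting 138, 93, 45 and 14 bases before the start site, of which 2 lie in the printed stretch. An E-box was in 7.23% of all windows, and 5 windows (0.0143%) held 4 or more. Among the windows of the tested genes, 9.92% had an E-box and 4 windows (0.0330%) held 4 or more. BBC3 had 1 E-box, 232 bases before its start, and BID had 1 site, shared by the windows of different start sites. The E2F letters TTCCCGC and TTGGCGC, on either strand, were in none of these windows. They were in 9.22% of all windows and in 14.3% of those of the tested genes. A match is a description of the letters, and its absence says only that they are not in this window.

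In DMSO-treated cells the transcripts spanned from MCL1 at 91.4 ± 1.17 FPKM (SD, n = 2), higher than 96.6% of the tested genes, down to PMAIP1 at 0.0289 FPKM. BAX followed MCL1 at 59.3 ± 1.29 FPKM, above 94.1% of the tested genes. BCL2L2 (13.8 ± 0.61) and BAK1 (12.3 ± 0.19) came next, then BCL2L1 (6.48 ± 0.39), BBC3 (5.38 ± 0.029), BID (3.30 ± 0.12), BCL2L11 (1.91 ± 0.013) and BCL2 (0.704 ± 0.0064 FPKM). No neighbours in that order overlapped between their DMSO libraries. The order changed at the top with olaparib, where BAX (81.0 and 89.0 FPKM) overlapped MCL1 (82.0 and 84.2), and in the middle, where BBC3 was number 6 in DMSO, 4 with olaparib, 5 with palbociclib and 3 in the combination. With olaparib the BBC3 libraries overlapped those of BAK1. The plot of levels by treatment shows all 10 genes.

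**Figure D1:**
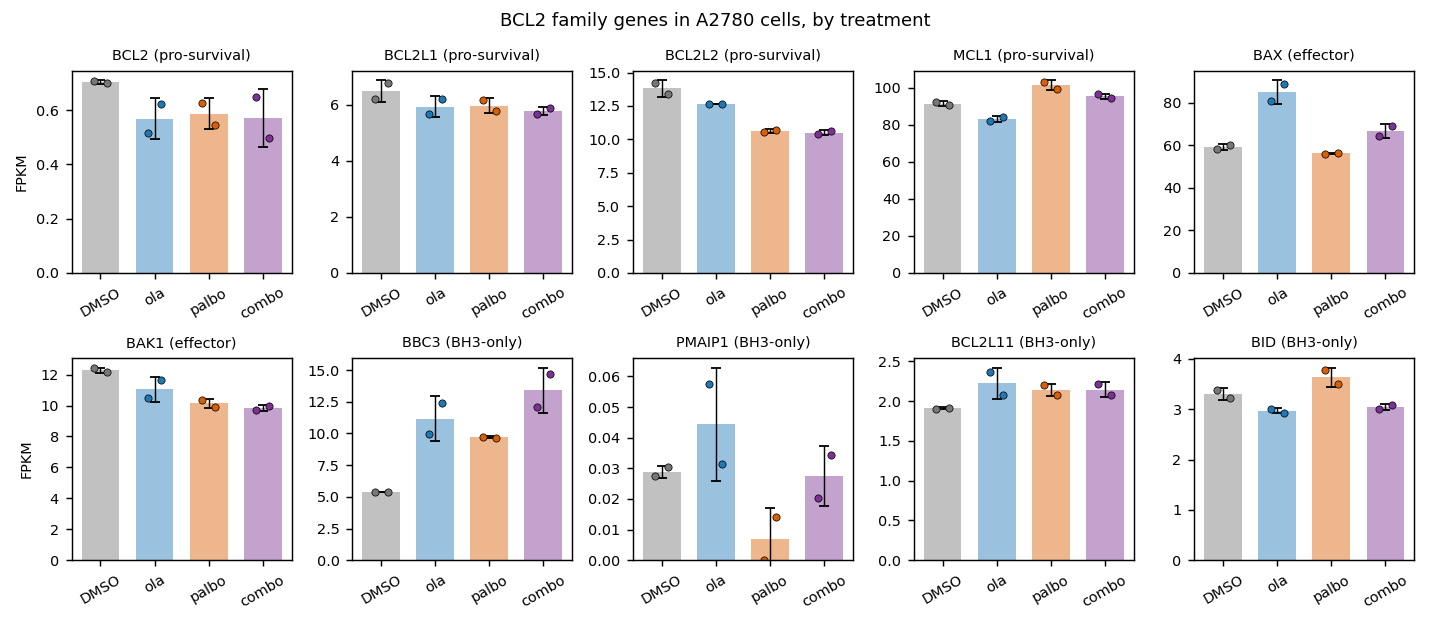
FPKM of the 10 BCL2 family genes (vertical axis, starting at 0 in each panel) in DMSO, olaparib (ola), palbociclib (palbo) and the combination (combo). Bars are group means, error bars the SD and points the 2 libraries. BAX is highest with olaparib (81.0 and 89.0 FPKM), BBC3 is lowest in DMSO (5.36 and 5.40), and BCL2L2 is lower in both palbociclib-treated groups than in DMSO and olaparib.

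Tests used limma on log2(FPKM + 1), with p-values adjusted by Benjamini-Hochberg over the 12443 genes that averaged at least 1 FPKM, and a gene counted as called below an adjusted p of 0.05. Of the 10 genes, 8 passed that filter and BCL2 and PMAIP1 did not. The 3 treatment comparisons against DMSO share the same 2 DMSO libraries. Over all tested genes, both treated libraries lay above both DMSO libraries in 23.3% with olaparib, 32.5% with palbociclib and 32.5% in the combination. Both lay below in 38.6%, 46.3% and 46.9%. Such separation was therefore common, and where it is given below for single genes it is a description only.

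Among the pro-survival genes, MCL1 moved in opposite directions with the 2 drugs given alone, and BCL2L2 fell wherever palbociclib was present. MCL1 (ENSG00000143384, GRCh38 chromosome 1, 150574551 to 150579738) stood at 92.3 and 90.6 FPKM in DMSO, 82.0 and 84.2 with olaparib, 103.2 and 99.6 with palbociclib, then 96.4 and 94.4 in the combination. The 4 groups did not overlap, with olaparib lowest and palbociclib highest. Exons of MCL1 overlap ADAMTSL4-AS1 on the same strand. Against DMSO the log2 fold change was −0.14 ± 0.04 with olaparib (SE; limma adjusted p = 0.0462), 0.15 ± 0.04 with palbociclib (adjusted p = 0.0119) and 0.06 ± 0.04 in the combination (adjusted p = 0.188). MCL1 was 0.20 ± 0.04 higher in the combination than with olaparib alone (limma adjusted p = 0.00434). The fall with olaparib depended on the scaling: it was −0.04 after quantile normalisation (limma adjusted p = 0.584) and −0.07 after TPM scaling, which sets every library to the same sum (0.217). Its call was also lost without any 1 of the DMSO, olaparib or palbociclib libraries (limma adjusted p = 0.0628 to 0.214). The rise with palbociclib was not called without DMSO replicate 2 (0.0821) or palbociclib replicate 1 (0.0698), whereas the combination was called higher than DMSO after quantile normalisation (0.35, limma adjusted p = 0.0004) and after TPM scaling (0.20, 0.00264).

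BCL2L2, which encodes the pro-survival protein BCL-w (ENSG00000129473, chromosome 14, 23298790 to 23311759), measured 14.2 and 13.4 FPKM in DMSO, 12.7 in both olaparib libraries, 10.5 and 10.7 with palbociclib, then 10.4 and 10.6 in the combination. All 4 libraries that received palbociclib lay below all 4 that did not. The log2 fold change against DMSO was −0.35 ± 0.04 with palbociclib (limma adjusted p = 0.00053) and −0.36 ± 0.04 in the combination (adjusted p = 0.000297), and these calls held in all 16 alternatives. With olaparib it was −0.12 ± 0.04 (adjusted p = 0.0978). Its exons overlap those of the readthrough gene BCL2L2-PABPN1 on the same strand and of PPP1R3E on the other, so the reads may be shared among them.

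BCL2L1, which encodes BCL-xL (ENSG00000171552, chromosome 20, 31664452 to 31723989), had 6.20 and 6.75 FPKM in DMSO and between 5.66 and 6.19 in the 6 treated libraries. Every treated library was thus below both DMSO libraries, but no comparison passed the test. In the single comparisons, 38.6% to 46.9% of all tested genes were below DMSO in this way. The log2 fold changes against DMSO were −0.11 ± 0.06 with olaparib (limma adjusted p = 0.252), −0.10 ± 0.06 with palbociclib (0.199) and −0.14 ± 0.06 in the combination (0.0819, 95% interval −0.28 to 0.00046). Its exons overlap the opposite-strand gene ABALON, and the sources used here do not state if counting was strand-specific.

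BCL2 itself (ENSG00000171791, chromosome 18, 63123346 to 63320128) was scarce in these cells. It had 0.708 and 0.699 FPKM in DMSO (271 and 243 reads), 0.516 and 0.623 with olaparib (142 and 209 reads), 0.627 and 0.546 with palbociclib (162 and 205 reads), and 0.648 and 0.497 in the combination (167 and 152 reads). Both DMSO libraries were above all 6 treated ones. In a fit of limma-voom to recovered reads that kept genes averaging 10 reads, chosen after seeing the data, the log2 fold change was −0.30 ± 0.13 with olaparib (adjusted p = 0.126), −0.28 ± 0.13 with palbociclib (0.0800) and −0.33 ± 0.14 in the combination (0.0490, where 54.2% of all genes in that fit were called). On log2(FPKM + 1) without a filter the combination difference was −0.12 (limma adjusted p = 0.478).

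The effectors did not move together. BAX, which oligomerises into the pore (ENSG00000087088, chromosome 19, 48954815 to 48961798), measured 58.4 and 60.2 FPKM in DMSO, 81.0 and 89.0 with olaparib, 55.98 and 56.4 with palbociclib, then 64.4 and 69.0 in the combination. The 4 groups did not overlap: olaparib was highest, then the combination, DMSO and palbociclib. The mean was 1.43 times DMSO with olaparib, and the log2 difference was 0.51 ± 0.05 (limma adjusted p = 0.00894, ± SE). It was 0.17 ± 0.05 in the combination (adjusted p = 0.0341) and −0.08 ± 0.05 with palbociclib (adjusted p = 0.282). The combination was 0.785 times olaparib alone (log2 −0.34 ± 0.05, limma adjusted p = 0.00248), and that call held in all 16 alternatives.

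The olaparib call for BAX was lost without DMSO replicate 1, DMSO replicate 2 or olaparib replicate 2, at differences of 0.44 to 0.53. Such fits leave a single library in a group, and the share of all genes called in them was not counted. In the combination the BAX call was lost without DMSO replicate 1 (adjusted p = 0.152), DMSO replicate 2 (0.0792), palbociclib replicate 1 (0.0555), palbociclib replicate 2 (0.0554) or combination replicate 2 (0.154), and with no filter (0.0904). The palbociclib difference in BAX changed sign with scaling, to 0.11 after quantile normalisation (limma adjusted p = 0.0384) and 0.03 after TPM scaling.

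BAK1, the other pore-forming effector (ENSG00000030110, chromosome 6, 33572547 to 33580293), was lower, not higher, in the treated cells. It had 12.4 and 12.1 FPKM in DMSO, 10.5 and 11.6 with olaparib, 10.4 and 9.94 with palbociclib, then 9.71 and 9.99 in the combination. All treated libraries lay below both DMSO libraries. BAK1 fell by 0.25 ± 0.05 on the log2 scale with palbociclib (limma adjusted p = 0.00669) and by 0.29 ± 0.05 in the combination (adjusted p = 0.00282), and both calls held in all 16 alternatives. With olaparib the difference was −0.14 ± 0.05 (adjusted p = 0.119), and between the combination and olaparib −0.15 ± 0.05 (adjusted p = 0.0533). Its exons overlap GGNBP1 on the opposite strand. BAX made up 82.9% of the effector FPKM in DMSO, 88.5% with olaparib, 84.7% with palbociclib and 87.1% in the combination.

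BBC3 was the 1 gene of the family called in all 3 comparisons with DMSO. BBC3 (ENSG00000105327, chromosome 19, 47220822 to 47232766), whose protein PUMA binds every major pro-survival member, measured 5.36 and 5.40 FPKM in DMSO, 9.92 and 12.4 with olaparib, 9.76 and 9.63 with palbociclib, then 12.1 and 14.7 in the combination. All 6 treated libraries were above both DMSO libraries, and the olaparib and combination ranges overlapped. The mean was 2.08 times DMSO with olaparib, 1.802 times with palbociclib and 2.49 times in the combination. The log2 fold changes were 0.92 ± 0.11 (limma adjusted p = 0.0108), 0.75 ± 0.11 (0.00143) and 1.17 ± 0.11 (0.000137). The palbociclib and combination calls held in all 16 alternatives, whereas the olaparib call was lost without DMSO replicate 1 (adjusted p = 0.0816), DMSO replicate 2 (0.0872) or olaparib replicate 2 (0.0558), at differences of 0.78 to 0.93. The microRNA genes MIR3190 and MIR3191 overlap its exons.

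The other tested BH3-only genes, BCL2L11 and BID, passed the test in none of the comparisons. BCL2L11, which encodes BIM, a direct activator of the effectors (ENSG00000153094, chromosome 2, 111119378 to 111168447), had 1.90 and 1.92 FPKM in DMSO and 2.07 to 2.36 FPKM in the treated libraries. Every treated library was above both DMSO libraries, with log2 fold changes of 0.15 ± 0.07 with olaparib (limma adjusted p = 0.200), 0.11 ± 0.07 with palbociclib (0.233) and 0.11 ± 0.07 in the combination (0.216). Of all tested genes, 23.3% to 32.5% were above DMSO in this way in the single comparisons. After TPM scaling the combination difference was 0.27 (limma adjusted p = 0.0492). Exons of BCL2L11 overlap MIR4435-2HG on the opposite strand.

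BID, which links death receptors to the mitochondrial pathway once caspase-8 cleaves its protein (ENSG00000015475, chromosome 22, 17734138 to 17774770), measured 3.38 and 3.21 FPKM in DMSO, 3.01 and 2.93 with olaparib, 3.77 and 3.50 with palbociclib, then 3.0 and 3.08 in the combination. The palbociclib libraries were the highest and both groups that received olaparib were below DMSO. The differences from DMSO were −0.11 ± 0.05 (limma adjusted p = 0.198), 0.11 ± 0.05 (0.140) and −0.09 ± 0.05 (0.200) for olaparib, palbociclib and the combination. TPM scaling put BID with palbociclib at 0.22 (limma adjusted p = 0.0274) and turned the combination to 0.02, while quantile normalisation put the combination at −0.16 (0.0411).

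PMAIP1 (ENSG00000141682, chromosome 18, 59899948 to 59904306) was near the detection limit, with 13 reads over all 8 libraries. There were 2 and 2 reads in DMSO, 3 and 2 with olaparib, 0 and 1 with palbociclib, then 1 and 2 in the combination. The highest value was 0.0574 FPKM, and a count of 0 allows up to 3 reads, which was 0.0611 FPKM in the palbociclib library without a read (counting error only). A difference between treatments was not detectable at this depth.

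Counted together, 3 of the 8 tested genes were called with olaparib against DMSO, BBC3 and BAX higher and MCL1 lower, where 14.6% of all tested genes were called (4.13% higher and 10.5% lower). The median log2 difference was −0.11 over the 8 genes and −0.03 over all tested genes. After quantile normalisation or TPM scaling the split was 2 higher and 0 lower (8.04% and 11.3% of all genes called). Calls were also lost without DMSO replicate 1, DMSO replicate 2 or olaparib replicate 2. Such fits leave a single library in a group, and the share of all genes called in them was not counted. With palbociclib 4 of 8 were called, BBC3 and MCL1 higher and BCL2L2 and BAK1 lower, where 50.1% of all tested genes were (18.7% higher and 31.4% lower). That share of the family is close to the background. In the combination 4 of 8 were called, BBC3 and BAX higher and BCL2L2 and BAK1 lower, against a background of 56.8% (21.5% higher and 35.3% lower). With TPM scaling the split in the combination was 4 higher and 2 lower (56.9% of all genes called), and with quantile normalisation 3 and 3 (54.5%). TPM scaling moved the median of all genes in the combination by 0.12, from −0.06 to 0.06. Relative to the median of all genes, the combination difference was 1.23 for BBC3, 0.23 for BAX, 0.12 for MCL1, −0.30 for BCL2L2 and −0.23 for BAK1.

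**Figure D2:**
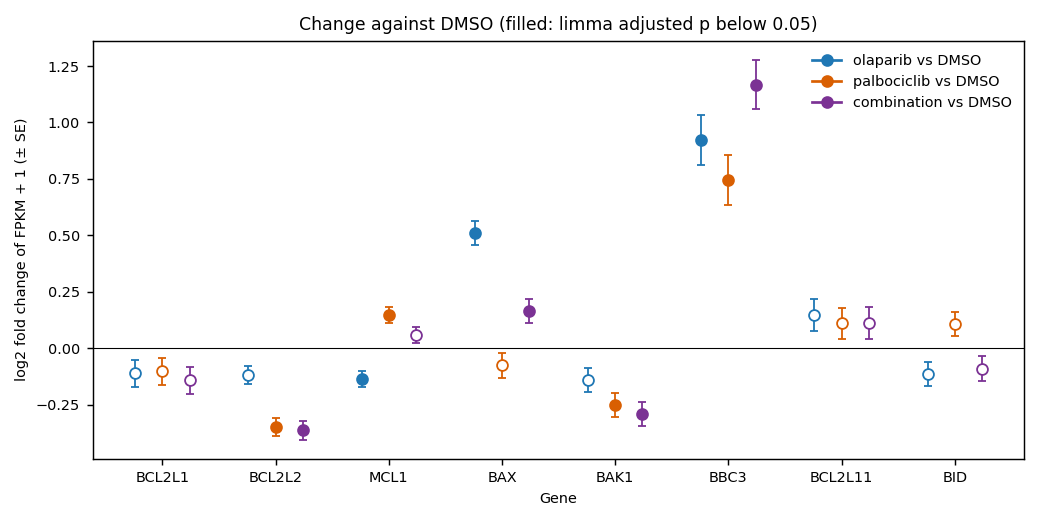
Log2 fold change of FPKM + 1 against DMSO (vertical axis, ± SE) for the 8 tested genes, by comparison. Filled points passed the limma test. BBC3 is filled in all 3 comparisons, at 0.92, 0.75 and 1.17, whereas BCL2L2 and BAK1 are filled below 0 with palbociclib and in the combination.

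The combination was then set against each drug alone. Against olaparib, 3 of 8 genes were called, MCL1 higher and BAX and BCL2L2 lower, where 44.4% of all tested genes were called (17% higher and 27.4% lower). BBC3 was 0.24 ± 0.11 higher (limma adjusted p = 0.112), and passed after quantile normalisation (0.32), after TPM scaling (0.33), with limma-voom (0.26), without olaparib replicate 2 (0.39) and without combination replicate 1 (0.37). BAK1 passed without olaparib replicate 1 (−0.22). Against palbociclib, limma called 0 of 8 genes, where 0.0241% of all tested genes were called and 4 of the 8 had an unadjusted p under 0.05 (16.6% of all tested genes).

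Those 4 genes were BAX, BBC3, BID and MCL1, and their groups did not overlap, BAX and BBC3 being higher and BID and MCL1 lower. Over all tested genes, 18.1% had both combination libraries above both palbociclib libraries and 29.1% had both below, so this share of the family is close to the background. BAX was 0.24 ± 0.05 higher in the combination than with palbociclib (limma adjusted p = 0.146) and BBC3 0.42 ± 0.11 higher (0.167), while BID differed by −0.20 ± 0.05 (0.176) and MCL1 by −0.09 ± 0.04 (0.286). The limma-voom fit on recovered reads called 2 of 8, BAX (0.25, adjusted p = 0.0174) and BBC3 (0.47, 0.00989), where it called 2.32% of all genes. Quantile normalisation called BAX (0.31, limma adjusted p = 0.0383), where it called 0.137% of all genes.

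A departure from additivity on the log2 scale asks whether the combination differs from the sum of both drugs' separate differences. Limma called 0 of the 8 genes, and 0.00804% of all tested genes, while 2 of the 8 had an unadjusted p under 0.05 (10.6% of all tested genes). The combination stood below the sum by 0.27 for BAX (log2 −0.27 ± 0.08, 95% interval −0.45 to −0.09, limma adjusted p = 0.443) and below it for BBC3 as well (−0.50 ± 0.16, interval −0.87 to −0.13, adjusted p = 0.443). Limma-voom also called 0 of the 8, and 0.402% of all genes.

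The balance was described as the summed FPKM of the 6 effector and BH3-only genes divided by that of the 4 pro-survival genes. It was 0.718 and 0.744 in DMSO, 1.06 and 1.14 with olaparib, 0.681 and 0.700 with palbociclib, then 0.809 and 0.887 in the combination. The 4 groups did not overlap, and the ratio exceeded 1 in the olaparib libraries alone. Group means were 0.731 ± 0.018, 1.10 ± 0.056, 0.690 ± 0.014 and 0.848 ± 0.055 (SD, n = 2 each). These ratios are summaries over the chosen genes and are given as a description, with no test. They are no measure of the proteins.

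Because the sum follows the abundant genes, the ratio mostly tracked BAX and MCL1. MCL1 made up 81.3% of the pro-survival FPKM in DMSO, 81.3% with olaparib, 85.5% with palbociclib and 85.0% in the combination. The ratio of BAX to MCL1 was 0.633 and 0.665 in DMSO, 0.988 and 1.06 with olaparib, 0.542 and 0.567 with palbociclib, then 0.669 and 0.731 in the combination. With each gene weighted equally, by the geometric mean of FPKM + 1, the ratio was 0.553 in DMSO, 0.702 with olaparib, 0.636 with palbociclib and 0.689 in the combination, so that palbociclib then stood above DMSO instead of below it.

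BBC3 gave a different order. Its ratio to BCL2L1 was 0.864 and 0.799 in DMSO, 1.75 and 2.01 with olaparib, 1.58 and 1.67 with palbociclib, then 2.14 and 2.49 in the combination. DMSO was lowest and the combination highest, with no overlap among the 4 groups. Its ratio to MCL1 was 0.0581 and 0.0596 in DMSO, 0.121 and 0.147 with olaparib, 0.0945 and 0.0968 with palbociclib, then 0.126 and 0.155 in the combination, where the olaparib and combination libraries overlapped. BBC3 made up 50.7% of the BH3-only FPKM in DMSO, 67.9% with olaparib, 62.7% with palbociclib and 71.9% in the combination.

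**Figure D3:**
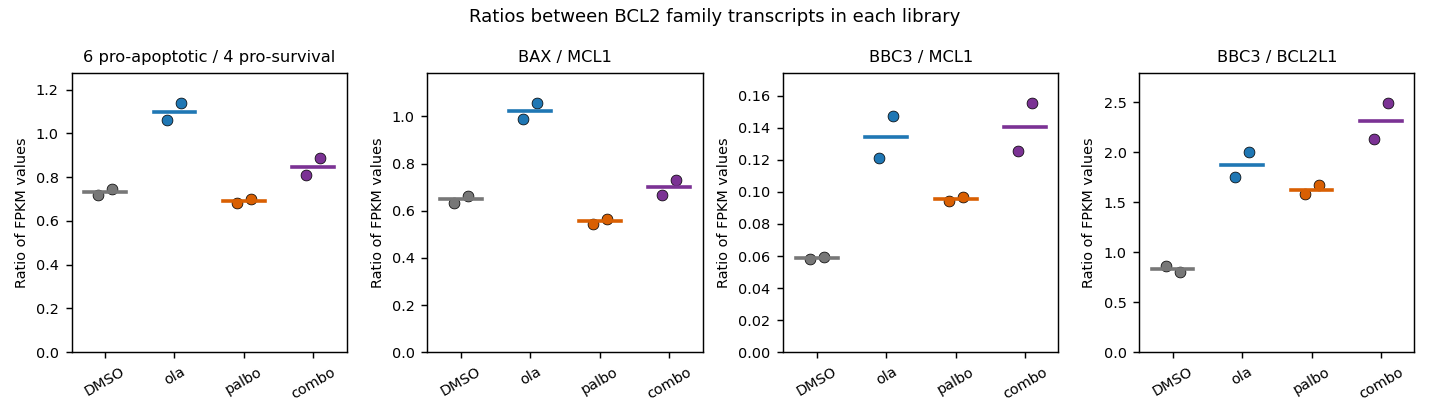
Ratios of FPKM values (vertical axes, from 0) in each library, with bars at the group means and the groups labelled as in the plot of levels. The ratio of pro-apoptotic to pro-survival FPKM and that of BAX to MCL1 are highest with olaparib (1.06 and 1.14, and 0.988 and 1.06), whereas BBC3 to BCL2L1 is highest in the combination (2.14 and 2.49).

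Since BBC3 was called against DMSO with every treatment, the genes with the most similar trio of log2 differences were looked up among 1499 protein-coding genes also called in all 3. BTG2, an antiproliferative gene, had 1.15, 0.84 and 1.30 for olaparib, palbociclib and the combination, a root mean square distance of 0.16 from BBC3. LRP1, an endocytic receptor, had 0.66, 0.75 and 1.02 (distance 0.18), and GDF15, a stress cytokine, had 1.14, 0.94 and 1.39 (distance 0.21). These comparisons share their DMSO libraries.

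Further relatives of the family were read from a list of names. BOK, an effector-like protein, had 22.8 and 25.2 FPKM in DMSO, and BAD, a BH3-only protein, averaged 2.94 FPKM there. Neither passed in any comparison with DMSO in the main fit. BAD passed in the combination after TPM scaling (0.31, limma adjusted p = 0.0266) and with the replicate number as a block (0.15, 0.0365). The mitophagy receptors BNIP3 and BNIP3L moved apart. BNIP3 fell from 20.7 and 20.4 FPKM in DMSO to 13.2 and 13.3 with palbociclib and 12.2 and 12.4 in the combination (log2 −0.59 ± 0.04 and −0.70 ± 0.04, limma adjusted p = 5.61e-05 and 1.86e-05). BNIP3L rose from 8.15 and 8.47 FPKM to 11.9 and 10.8 and to 11.5 and 11.8 (0.41 ± 0.06 and 0.44 ± 0.06, limma adjusted p = 0.00115 and 0.000576). BNIP1 fell by 0.51 ± 0.10 and BNIP2 by 0.22 ± 0.06 in the combination (limma adjusted p = 0.00311 and 0.0148), and BCL2L12 was called in none. BCL2L13 was called lower with olaparib (−0.18) and higher with palbociclib (0.16). The BNIP2 call was lost after TPM scaling (−0.11, limma adjusted p = 0.213) and without DMSO replicate 2 (0.0971) or combination replicate 2 (0.0530), and that of BCL2L13 with palbociclib without DMSO replicate 1 or palbociclib replicate 2 (up to 0.0558). BIK, BMF, HRK, BCL2L10, BCL2L14 and BCL2L15 were below the filter.

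Of these, BMF, a BH3-only gene, averaged at least 10 reads and was given the limma-voom fit used for BCL2, after its values were seen. BMF had 0.102 and 0.211 FPKM in DMSO (18 and 34 reads), 0.345 and 0.212 with olaparib (44 and 33 reads), 0.351 and 0.322 with palbociclib (42 and 56 reads), then 0.394 and 0.402 in the combination (47 and 57 reads). All 4 libraries that received palbociclib were above both DMSO libraries. In that fit the log2 difference from DMSO was 0.86 ± 0.33 with olaparib (limma adjusted p = 0.0723), 1.19 ± 0.32 with palbociclib (0.00333, where 48.7% of all genes in the fit were called) and 1.45 ± 0.32 in the combination (0.000443). On log2(FPKM + 1) without a filter no BMF difference passed, with 0.21 for palbociclib (limma adjusted p = 0.139) and 0.28 for the combination (0.0558).

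The outer mitochondrial membrane partners of the family comprised the channels VDAC1, VDAC2 and VDAC3 and the BID receptor MTCH2. All 4 were called lower with each treatment, where 10.5%, 31.4% and 35.3% of tested genes were lower. VDAC2, which binds BAK1 and BAX at the membrane, went from 90.02 and 90.8 FPKM in DMSO to 77.2 and 78.8 with olaparib, 69.5 and 69.98 with palbociclib, then 64.6 and 65.2 in the combination (log2 −0.47 ± 0.03 in the combination, limma adjusted p = 3.2e-05). VDAC3 had the largest difference of the 4, from 65.7 and 65.8 to 39.5 and 40.1 FPKM in the combination (−0.71 ± 0.03, limma adjusted p = 1.45e-05). The palbociclib and combination counts were 4 of 4 in all alternatives. With olaparib the count was 0 after quantile normalisation, where 3.2% of all tested genes were called lower. The olaparib calls were also lost without either DMSO library or either olaparib library. The share of all genes called in those fits was not counted.

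Of 10 apoptosome and executioner genes, 1 was called higher and 4 lower in the combination, close to the background there (21.5% of all tested genes higher and 35.3% lower). CYCS, which encodes the cytochrome c released through the pore, went from 121.0 and 121.1 FPKM in DMSO to 99.4 and 95.2 with olaparib, 76.0 and 68.4 with palbociclib, then 64.8 and 62.5 in the combination (log2 −0.92 ± 0.05, limma adjusted p = 2.51e-05). CASP9, the initiator caspase of the apoptosome, rose by 0.53 ± 0.09 (adjusted p = 0.00199) from 0.934 and 0.887 to 1.63 and 1.90 FPKM. ENDOG, a mitochondrial nuclease, was the other named gene of the list, at −0.42 ± 0.09 (limma adjusted p = 0.00609, and 0.0562 after quantile normalisation).

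The IAP genes, whose products restrain caspases, included 4 tested genes, of which 2 were lower in the combination, where 35.3% of all tested genes were. BIRC5 (survivin), which also acts in mitosis, fell from 66.4 and 71.0 FPKM in DMSO to 30.01 and 30.04 with palbociclib and to 26.3 and 29.1 in the combination (log2 −1.17 ± 0.05 and −1.28 ± 0.05, limma adjusted p = 3.12e-05 and 1.41e-05). With olaparib alone it had 63.5 and 63.05 FPKM (−0.12 ± 0.05, limma adjusted p = 0.188). XIAP was called lower in the combination (−0.21 ± 0.07, limma adjusted p = 0.0378), a call lost in 7 of 16 alternatives, among them those without DMSO replicate 1, DMSO replicate 2 or combination replicate 2.

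Among 5 genes of MCL1 protein turnover, 1 was called in the combination, against 56.8% of all tested genes: the deubiquitinase gene USP9X was higher (0.17 ± 0.04, limma adjusted p = 0.00648). Of 6 tested transcription factor genes known to act on BH3-only genes, 3 were higher and 2 lower in the combination, where 21.5% of all tested genes were higher and 35.3% lower. FOXO3, a factor that can induce BBC3 and BCL2L11, was called higher with olaparib (0.28), palbociclib (0.26) and the combination (0.33 ± 0.04, limma adjusted p = 0.000706). MYC was higher in the combination by 0.30 ± 0.05 (adjusted p = 0.00282), E2F1 fell by 0.70 ± 0.05 (3.97e-05) and ATF4 by 0.48 ± 0.05 (0.000168).

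On the death receptor side, which reaches the family through BID, 2 of 5 tested genes were higher in the combination and 1 lower, close to the 56.8% of all tested genes called there. CFLAR, the caspase-8 inhibitor, rose by 0.28 ± 0.06 (limma adjusted p = 0.0048) and TNFRSF10B, the TRAIL receptor, by 0.18 ± 0.04 (0.0115). TNFRSF1A differed by −0.14 ± 0.04 (adjusted p = 0.0144), but by 0.04 after quantile normalisation (adjusted p = 0.368) and by −0.0069 after TPM scaling (0.888). The TNFRSF10B call was lost without DMSO replicate 1 or combination replicate 2 (limma adjusted p up to 0.0726), and the TNFRSF1A call without DMSO replicate 1 (0.103) or combination replicate 1 (0.0679) as well. FAS was below the filter. TNFRSF10B was also called higher with olaparib alone, by 0.31. The combination differed from olaparib alone by −0.13 for TNFRSF10B, a call lost after quantile normalisation and after TPM scaling. With olaparib, each call named in these further lists was lost when either DMSO library was left out (for CYCS, limma adjusted p up to 0.106).

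**Figure D4:**
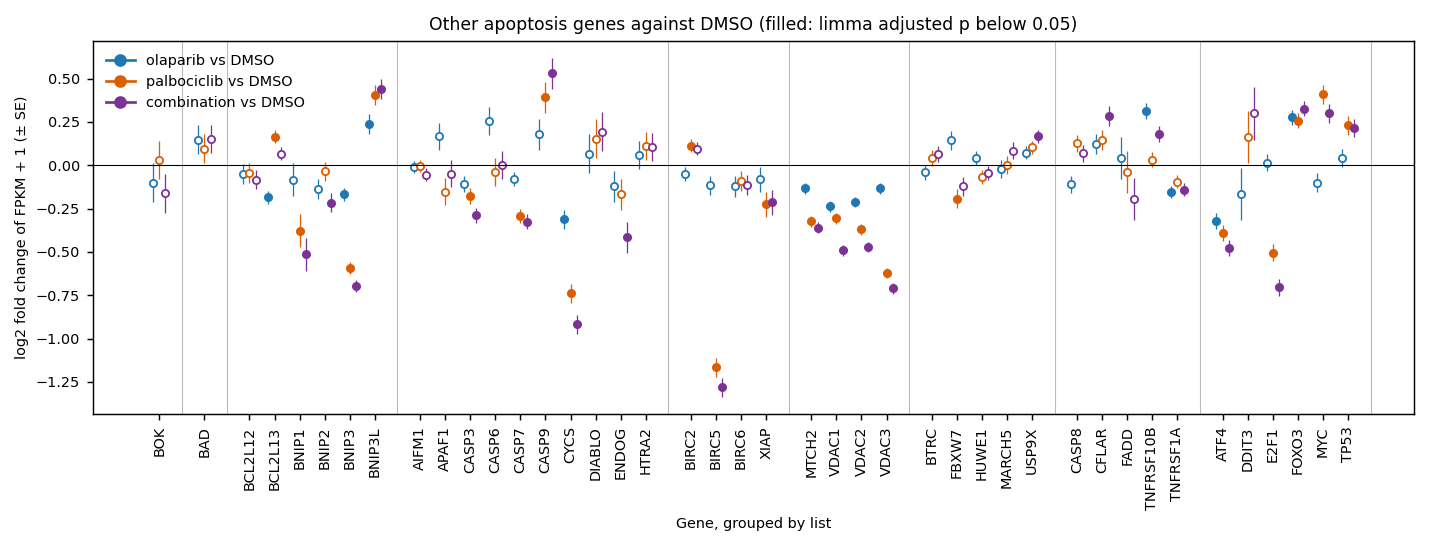
Log2 fold change of FPKM + 1 against DMSO (vertical axis, ± SE) for the tested genes of the further lists, grouped by list. Filled points passed the limma test. The 4 outer membrane partners are below 0 in every comparison, and BIRC5 is the lowest gene, at −1.17 with palbociclib and −1.28 in the combination.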

How the data were processed

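Polyadenylated RNA of 8 libraries was sequenced after NEBNext Ultra preparation, per the labels' protocols. Per the submitters' processing notes, the tools were HTSeq 0.6.0, STAR 2.5.1b and CASAVA 1.8, with hg38 and GRCh38 listed as builds and no roles given. The authors deposited FPKM values per Ensembl gene. For 90.3% of genes these gave whole reads (tolerance 0.01) with GENCODE v29 exon lengths, and for the rest after a length search. The labels call the 2 libraries per group biological repeats but name no separate cultures, so p-values reflect only how far these libraries spread, which may be technical. Replicates differed beyond sampling noise (chi-square per degree of freedom 2.37 to 4.09).

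Limma 3.58.1 in R 4.3.3 was run on log2(FPKM + 1) with trend, in 1 fit of all 8 libraries with 4 residual degrees of freedom. Low genes' fold changes are understated on that scale. A gene was tested at a mean of at least 1 FPKM (12443 genes). The threshold was an adjusted p of 0.05. Scripts were tested on simulated data. Alternatives were quantile normalisation, TPM scaling, a pseudocount of 0.1, no filter, a replicate block, limma-voom, only the compared groups, and each library left out. Replicate numbers did not pair the samples.

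Members and lists were chosen with earlier results of these data known. All 10 members and all tested relatives are named. From each further list the 2 highest and 2 lowest called genes in the combination against DMSO are named. The genes most like a member were sought for members called against DMSO in all 3 comparisons. Of 89 listed genes, 83 were in the table, and BCL2A1, TNFRSF10A, TNFSF10, PTPRC, CD3E and KDR were not analysed here.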

Additional observations from a re-analysis of the deposited data

How the results depend on the processing

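Over the alternatives of the log2 differences of single genes (766 values of 54 results), 709 kept their direction and side of the threshold, 25 lost a call, 17 gained one and 15 changed sign. Many of these alternatives cannot change a difference, only its test. Those are the replicate block, the fit of only the compared groups, and leaving out a library of a group outside the comparison. Limma-voom used the library sizes of the FPKM values, so it kept their scaling. Leaving out 1 library gave 0 to 3 called genes for olaparib against DMSO. For the combination against palbociclib, 1 gene was called after quantile normalisation, where 0.137% of all genes were called. It was 2 with limma-voom (2.32% of all genes) and 2 with limma-voom on genes averaging 10 reads (1.52%). The geometric mean changed the ratio of pro-apoptotic to pro-survival FPKM to 0.553 in DMSO, 0.702 with olaparib, 0.636 with palbociclib and 0.689 in the combination. The sign changed to 0.11 and 0.026 for BAX with palbociclib (quantile normalisation and TPM scaling) and to 0.021 for BID in the combination (TPM scaling). For the combination against olaparib it changed to 0.0022 for BCL2 (no filter), 0.039 for BCL2L1 and 0.023 for BCL2L11 (TPM scaling) and −0.031 for BID (quantile normalisation), and leaving out 1 library gave −0.086 to 0.024 for BCL2L1 and −0.099 to 0.028 for BCL2L11. For the combination against palbociclib it changed to 0.0084 and 0.019 for BCL2L2 (quantile normalisation and TPM scaling) and −0.020 for BCL2L11 (quantile normalisation), and leaving out 1 library gave −0.080 to 0.00027 for BCL2L1 and −0.030 to 0.032 for BCL2L11. The cause was not tested. With the replicate number as a block, the family's counts were the same in the comparisons with DMSO and of the combination with olaparib. The share of all genes called in that fit was not counted. Same-numbered libraries deviated together at correlations of −0.0467 to 0.0342. The number of all genes called with olaparib was 1821, against 1000 after quantile normalisation and 3180 with limma-voom, and called higher or lower it split 514 to 1307, against 602 to 398 after quantile normalisation. Depth limits PMAIP1, with 13 reads in all, and BCL2.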

Other observations

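BOK, an effector-like relative of BAX and BAK1, was more abundant than BAK1 in all 8 libraries. DMSO libraries held 22.8 and 25.2 FPKM, olaparib libraries 20.6 and 24.2, palbociclib libraries 26.8 and 22.4, and combination libraries 20.1 and 22.6, whereas BAK1 ranged from 9.71 to 12.4 FPKM. No treatment changed BOK past the limma test, with log2 differences from DMSO of −0.10 ± 0.11 (adjusted p = 0.576), 0.03 ± 0.11 (0.840) and −0.16 ± 0.11 (0.243).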
